A study of Mus musculus with 12 samples.

Results

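The Hox genes of the 4 mouse clusters were examined as exonic and intronic RNA in embryonic stem cells, separately in newly transcribed and in total RNA. They were chosen by name, as the protein-coding genes called Hoxa, Hoxb, Hoxc or Hoxd followed by a number in the GENCODE M1 annotation. This gave 39 genes of 21502 protein-coding genes with exonic rows in the deposited table: 11 in the Hoxa cluster, 10 in Hoxb, 9 in Hoxc and 9 in Hoxd. The cells were mouse DTCM23/49 XY embryonic stem cells (mESCs), unmodified, kept in serum with LIF on gelatin. One culture was split into 2 biological replicates that were passaged 8 times apart, so both come from 1 line, and all cells, also those behind the total RNA, received 200 µM 4-thiouridine (4sU), a uridine analog taken up by new transcripts. RNA was collected after 15, 30 or 60 min, and at each time the biotinylated 4sU-labeled RNA and the total RNA of each replicate were sequenced after removal of ribosomal RNA, giving 6 labeled and 6 total libraries.

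Hox proteins are homeodomain transcription factors that give the cells of the embryo their position along the head-to-tail axis. Within a cluster the genes are numbered by paralog group, and they are switched on in that order in time and space, anterior groups first and posterior groups last. In undifferentiated stem cells they are known as targets of Polycomb proteins, which hold developmental genes silent at promoters rich in CpG dinucleotides until signals such as retinoic acid act.

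Values are length-normalized abundances with nearly the same sum in each library, in which 20 units correspond to about 1 TPM, the usual unit of transcript abundance in RNA-seq, and 1 unit to 0.05 TPM. This scale and the cutoff were inferred from the values (nearly equal library sums and no value at or under 1 unit), since no source used here states them: a row without a value was read as at or under 1 unit and taken as 0. The depth of each library cannot be read from such values, and no counting error was available. The libraries differed in how much intronic RNA they held: introns made up between 6.52% and 7.40% of all abundance in total RNA, and between 6.98% and 14.8% in labeled RNA, highest in the labeled 15 min library of replicate 1. Markers of the cell type named in the labels were present. All 9 pluripotency markers with a name in the annotation had exonic values in every library, with summed levels between 20838 and 29312 in total RNA and between 19585 and 32334 in labeled RNA. Of 12 fibroblast markers, 7 had no exonic value in any library, among them Col3a1, Dcn, Lum and Postn, and the summed level of the list was between 30.1 and 62.3 over all libraries. The summed level was between 14.5 and 35.0 for the 6 mesoderm markers, between 6.27 and 23.1 for the 6 endoderm markers and between 227 and 500 for the 5 neural markers, with Mesp1, Afp and Neurog2 without an exonic value. Exonic values in all 12 libraries were listed for 3 fibroblast, 2 mesoderm, 1 endoderm and 4 neural markers. Of these, Tubb3 was highest, with a mean of 240 in total RNA. The summed levels are of exons. Dcn had intronic values in all 12 libraries and Afp in 2, while Lum, Postn, Mesp1 and Neurog2 had none. Introns of Gata4 (endoderm), Mixl1 (mesoderm) and Tubb3 (neural) were also listed in all 12 libraries. Their means in total RNA were 142, 13.3 and 8.08 units. The part of such other cells in the low Hox values was not tested.

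Most Hox genes had no value at all. Exonic RNA was listed in at least 1 library for 11 of the 39 genes, intronic RNA for 12, and either for 17, which leaves 22 genes without any value: Hoxa4, Hoxa5, Hoxa6, Hoxa7 and Hoxa10; Hoxb1, Hoxb4, Hoxb5, Hoxb6, Hoxb8 and Hoxb13; Hoxc4, Hoxc5, Hoxc6, Hoxc8 and Hoxc11; Hoxd3, Hoxd4, Hoxd9, Hoxd10, Hoxd11 and Hoxd12. Of all protein-coding genes, 18.2% had no exonic value in any library and 61.2% had one in all 12. No Hox gene had an exonic value in all 12 libraries. A missing row still allows up to 1 unit, and a gene without exonic values had between 1 and 7 exon rows, so such a gene may lie at or under 0.05 TPM for each of its rows but cannot be said to be absent. These are the rows that GENCODE M1 assigns to the gene. It holds 75.1% of the deposited Ensembl transcripts, and values of any later Hox transcripts are not counted. In bulk RNA, expression in a few cells and a low level in all of them cannot be told apart.

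Per library, between 2 and 5 Hox genes had an exonic value in total RNA (8.12% ± 3.0 of the 39, SD, n = 6) and between 2 and 7 in labeled RNA (11.1% ± 4.49, n = 6). In the same libraries, between 68.4% and 70.5% of protein-coding genes had an exonic value in total RNA and between 68.1% and 72.7% in labeled RNA. Introns gave the same picture, with values for 2 to 8 Hox genes in total RNA and for 2 to 11 in labeled RNA, against 77.6% to 80.0% and 78.2% to 88.3% of protein-coding genes with introns. The count of 11 Hox genes came from the labeled 15 min library of replicate 1, the one with the highest intronic share. Without it, the mean share of Hox genes with an intronic value in labeled RNA was 11.3% in place of 14.1%.

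**Figure D1:**
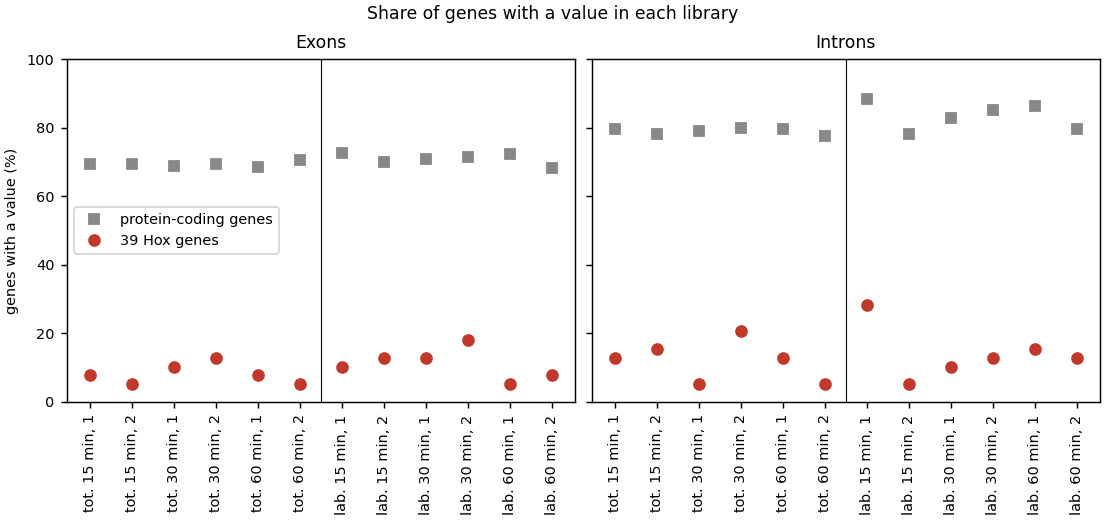
The percentage of genes with a value (vertical axis) is plotted for each of the 12 libraries (horizontal axis, RNA fraction, labeling time and replicate), for exons on the left and introns on the right. Red circles stand for the 39 Hox genes and grey squares for all protein-coding genes; the Hox shares stay between 5.13% and 28.2% while the protein-coding shares stay between 68.1% and 88.3%.

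The values present were low. Over all 39 genes the summed exonic abundance was between 2.24 and 12.7 units in total RNA and between 6.22 and 20.4 in labeled RNA. The highest exonic abundance of a Hox gene in any library was 10.8 units, or 0.539 TPM, for Hoxc12. By mean exonic level over the 12 libraries, 61.4% of protein-coding genes reached 5 units, and no Hox gene did. Hoxc12, the highest Hox gene by this measure, lay above 35.2% of protein-coding genes, and Hoxd13 above 31.3%.

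Position within the clusters was uneven. Of the 15 genes of the central groups 4 to 8, which pattern neck and trunk, 2 had any value (Hoxb7 and Hoxd8). Of the 8 anterior genes of groups 1 to 3, which act in hindbrain and neck, 6 had one, and of the 16 posterior genes of groups 9 to 13, which act in lower trunk, limbs and genitalia, 9 had one. The posterior count leans on 1 library: for Hoxa11, Hoxb9 and Hoxc10 the sole value was intronic, in the labeled 15 min library of replicate 1. Posterior genes held 83.0% of the summed exonic abundance in total RNA and 77.5% in labeled RNA. Most of this came from 3 genes, since Hoxc12, Hoxc13 and Hoxd13 held 29 of the 45 exonic values among 468 pairs of gene and library. Across genes, the rank correlation (Spearman's rho) of paralog number with mean exonic level was 0.12 over all 39 genes and 0.71 over the 9 genes of Hoxc, a description over genes that share the same libraries and of which most are tied at 0.

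**Figure D2:**
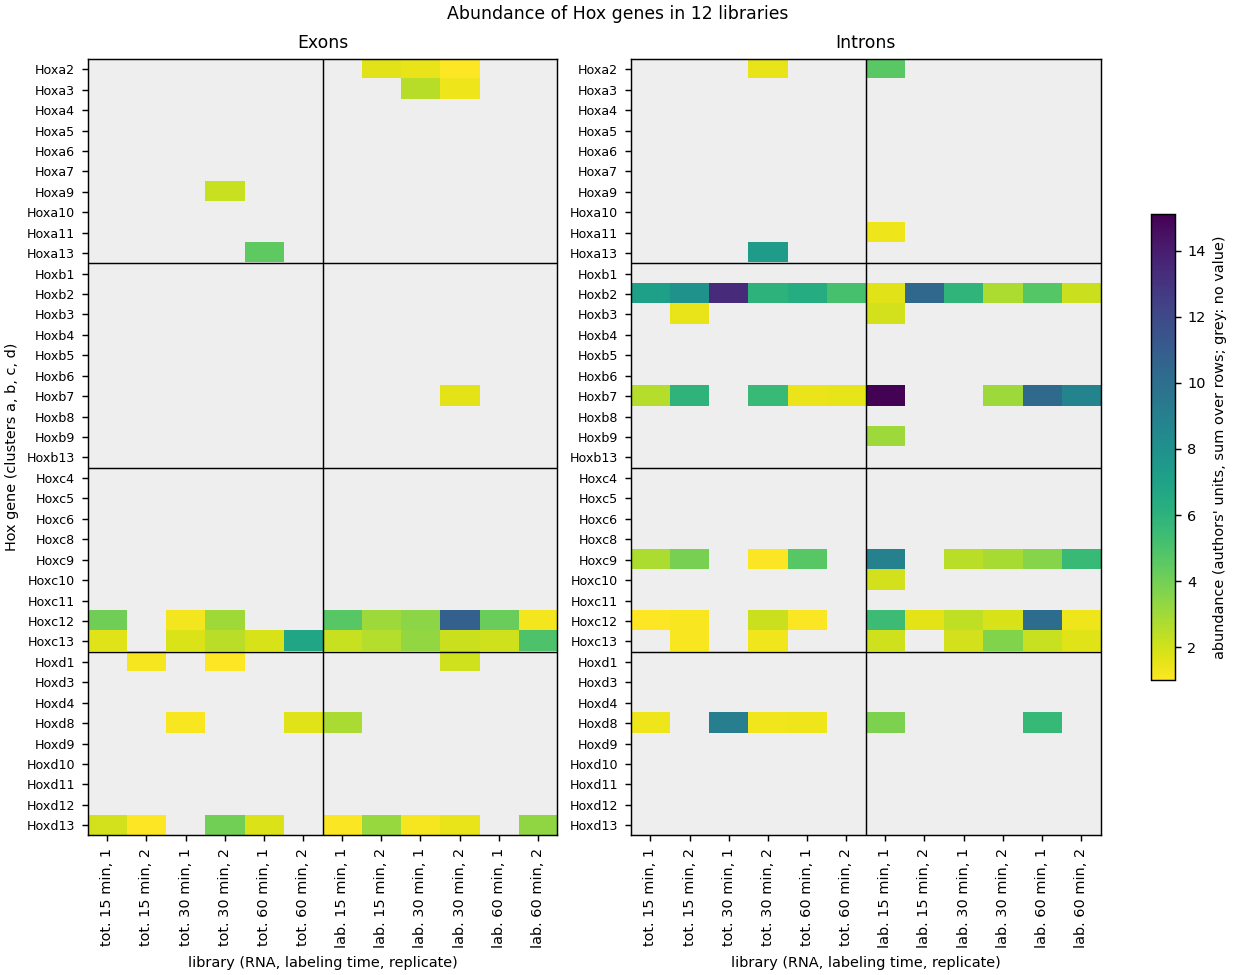
Colors give the abundance of the Hox genes named here and those without values (vertical axis, grouped by cluster with black lines) in each of the 12 libraries (horizontal axis, total RNA left of the vertical line and labeled RNA right of it), for exons and introns, in the units of the deposited table; grey means no value. Exonic values lie mainly in Hoxc12, Hoxc13 and Hoxd13, and intronic values mainly in Hoxb2, Hoxb7, Hoxc9, Hoxc12 and Hoxc13.

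Hoxc12 and Hoxc13 stand side by side at the posterior end of the Hoxc cluster, and Hoxc13 is known for its role in hair and nail keratinocytes. In GRCm38 coordinates Hoxc13 lies at chr15:102921131-102928814 and Hoxc12 at chr15:102936826-102938609, both on the plus strand and both with 1 transcript and 1 intron in the table. Exonic abundance of Hoxc12 was 4.06, 1.24 and 3.01 units in 3 total libraries (15 min of replicate 1 and 30 min of replicates 1 and 2) and had no value in the other three. In labeled RNA it was 4.67, 3.46 and 4.21 in replicate 1 and 3.08, 10.8 and 1.25 in replicate 2, after 15, 30 and 60 min. The groups overlapped, with means of 1.39 ± 1.76 in total and 4.58 ± 3.26 in labeled RNA (SD, n = 6).

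Exonic Hoxc13 had a value in 11 libraries, more than any other Hox gene. In total RNA it was 1.68, 1.81 and 1.87 in replicate 1 and missing, 2.45 and 6.73 in replicate 2, after 15, 30 and 60 min. In labeled RNA it was 2.17, 3.28 and 2.01 in replicate 1 and 2.57, 2.14 and 4.95 in replicate 2. The ranges of the groups overlapped almost completely, with means of 2.42 ± 2.27 and 2.85 ± 1.13 (SD, n = 6). Hoxc13 was the highest Hox gene of its cluster in total RNA, where the pluripotency factor Pou5f1 was 679 times as abundant and Smug1, the first expressed gene beyond the other end of the cluster, 12 times. Both the rank and the ratios rest on the total 60 min library of replicate 2: without it, an omission chosen after seeing the data, the mean of Hoxc13 was 1.56, that of Hoxc12 1.66, and the ratios were 1068 and 19.2.

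Hoxd13, the gene at the posterior end of the Hoxd cluster (chr2:74668225-74671603, plus strand) and a regulator of digits and genitalia, was the highest of its cluster in total RNA. It was at 1.96, missing and 1.77 units in total RNA of replicate 1 and at 1.03, 4.02 and missing in replicate 2. In labeled RNA it was at 1.07, 1.22 and missing in replicate 1 and at 3.15, 1.48 and 3.36 in replicate 2. The ranges of both fractions overlapped, from 0 to 4.02 in total and from 0 to 3.36 in labeled RNA, with means of 1.46 ± 1.51 and 1.71 ± 1.30 (SD, n = 6), and no intronic value was listed for Hoxd13 in any library.

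The neighbor of Hoxd13 inside the cluster, Hoxd12, had no value in any library. Promoters of the pair are shown because Hoxd13 was the Hox gene of its cluster with the most exonic values and Hoxd12 the next gene along. The sequences are the 250 bases before the start of each gene from RefSeq in GRCm38.p6, plus strand, at chr2:74667975-74668224 for Hoxd13 and chr2:74674763-74675012 for Hoxd12. Capitals mark the dinucleotide CG, which reads the same on both strands.
Hoxd13: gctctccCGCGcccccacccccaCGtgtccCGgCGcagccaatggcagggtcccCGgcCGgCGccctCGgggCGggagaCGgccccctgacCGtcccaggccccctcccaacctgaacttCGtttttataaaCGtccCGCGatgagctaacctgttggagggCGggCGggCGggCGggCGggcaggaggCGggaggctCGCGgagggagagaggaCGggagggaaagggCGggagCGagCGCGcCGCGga
Hoxd12: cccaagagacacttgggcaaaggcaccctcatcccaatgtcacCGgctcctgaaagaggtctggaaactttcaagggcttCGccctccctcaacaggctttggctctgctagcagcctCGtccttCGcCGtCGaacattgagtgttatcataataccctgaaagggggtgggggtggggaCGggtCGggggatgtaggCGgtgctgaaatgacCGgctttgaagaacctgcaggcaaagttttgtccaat
The Hoxd13 window held 31 CG dinucleotides and the Hoxd12 window 10, and the shares of G and C were 74.4% and 55.6%. At least 1 CG was found in 92.1% of all 32851 promoter windows of this length, at least 10 in 37.8% and at least 31 in 5.19%.

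Promoter windows were at hand for 22 of the 39 Hox genes, 24 windows in all. For the Hox genes without any value the median was 12 CG per window (14 genes, 16 windows) and for those with a value 15.5 (8 genes, 8 windows). Protein-coding genes with an exonic value in all 12 libraries had a median of 15, and those without an exonic value in any library had 2. In CpG content, Hox genes without values thus lay nearer to the genes with values in all libraries than to the other genes without values, which is given as a description without a test.

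Among the other Hox genes, exonic values were scattered. Hoxa13, the highest gene of its cluster in total RNA, had a value in 1 library alone, 4.47 units in total RNA at 60 min of replicate 1, summed over 4 transcripts. Hoxa9 had 2.20 in total RNA at 30 min of replicate 2 and Hoxb7 1.56 in labeled RNA at 30 min of replicate 2. The anterior genes Hoxa2 and Hoxa3, which pattern the hindbrain and pharyngeal arches, had values in 3 and 2 libraries, all of labeled RNA, at up to 1.65 and 2.54 units. The Hoxa3 values came from 1 transcript that shares 267 exonic bases with Hoxa2, so reads of the pair may have been split between them. Hoxd1 and Hoxd8 had values in 3 libraries each, of at most 2.04 and 2.80 units. In the Hoxb cluster no gene had an exonic value in total RNA, so no highest gene can be named there.

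Intronic RNA, commonly read as a mark of transcripts that are not yet spliced, was listed for 6 Hox genes that had no exonic value: Hoxa11, Hoxb2, Hoxb3, Hoxb9, Hoxc9 and Hoxc10. For 3 of these, Hoxa11, Hoxb9 and Hoxc10, the sole value stood in the labeled 15 min library of replicate 1. Another 6 had both kinds of value (Hoxa2, Hoxa13, Hoxb7, Hoxc12, Hoxc13 and Hoxd8), and 5 had exonic values without intronic ones. Of all protein-coding genes with introns, 8.32% had intronic values without exonic ones. Whether such intronic values came from unspliced transcripts of the gene was not tested.

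Hoxb2, an anterior gene known for its role in hindbrain segments, was the one Hox gene with an intronic value in all 12 libraries. Its single intron of 754 bases (gene at chr11:96351632-96354020, plus strand) was at 7.15, 13.4 and 6.39 units in total RNA of replicate 1 and at 7.88, 5.99 and 5.08 in replicate 2. In labeled RNA it was at 1.62, 5.85 and 4.73 in replicate 1 and at 10.4, 2.71 and 2.15 in replicate 2. No other annotated exon lies in this intron, and its exons, 3304 bases, had no value in any library. The labeled values reached lower than any total value but overlapped them, with means of 7.65 ± 2.97 in total and 4.58 ± 3.27 in labeled RNA (SD, n = 6).

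Hoxb7 introns were listed in 9 libraries, at 0 to 5.91 units in total RNA (median 2.04) and at 0 to 15.0 in labeled RNA (median 5.90). Nearly all of it came from the intron of 409 bases of a short processed transcript, and the 3 highest values were 15.0 and 10.2 in labeled RNA of replicate 1 at 15 and 60 min and 8.75 at 60 min of replicate 2. Hoxc9 introns were listed in 9 libraries, at 0 to 4.68 in total RNA (median 1.91) and 0 to 8.91 in labeled RNA (median 3.19). Both genes had libraries without a value in either fraction, so their groups overlapped over the whole range of total RNA.

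The single introns of Hoxc12 and Hoxc13 were seen more often in labeled than in total RNA. Hoxc12 introns were at 5.42, 2.35 and 10.1 in labeled RNA of replicate 1 and at 1.59, 1.86 and 1.35 in replicate 2, and at most 2.14 in total RNA, where 4 of 6 libraries had a value. Hoxc13 introns had a value in 5 of 6 labeled libraries, from 1.68 to 3.69, and in 2 of 6 total libraries, at 1.13 and 1.31. Every listed Hoxc13 value in labeled RNA lay above both of those in total RNA, but the labeled 15 min library of replicate 2 had none. Hoxd8 introns were listed in 6 libraries, highest in total RNA at 30 min of replicate 1 (9.06).

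**Figure D3:**
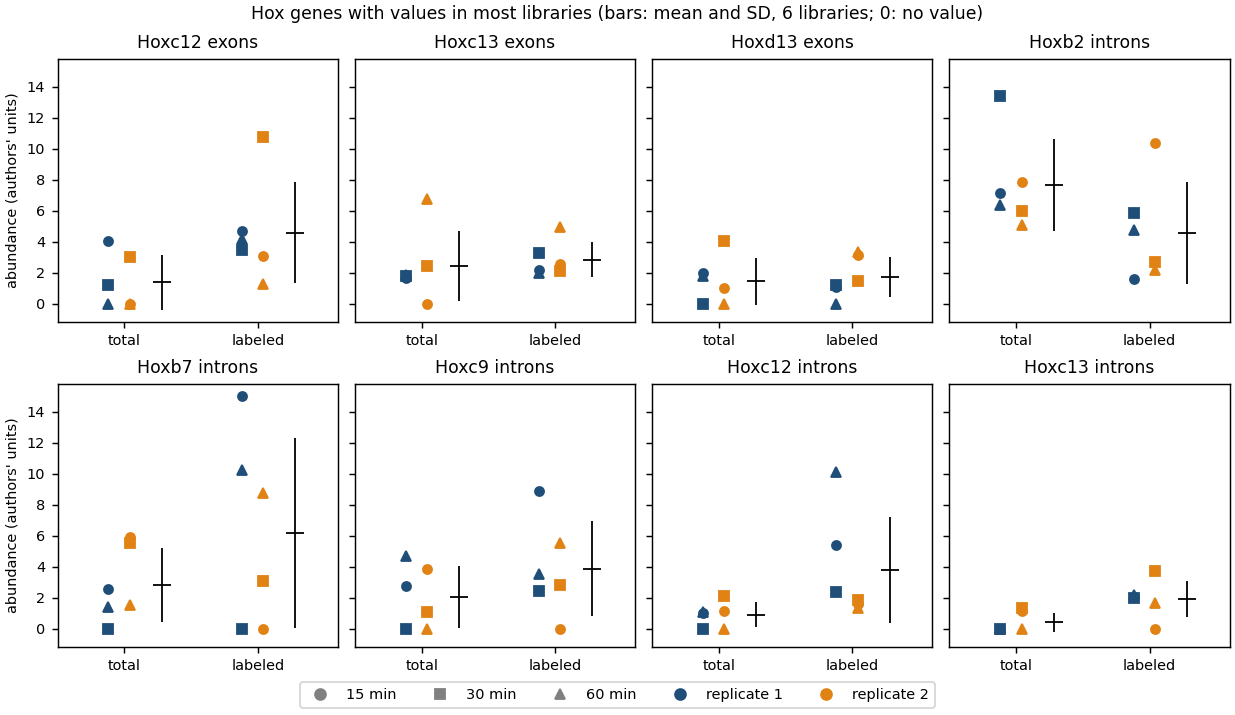
Abundance in the units of the deposited table (vertical axis) is plotted for the Hox genes with values in most libraries, in total and labeled RNA (horizontal axis). Each point is a library (shape: labeling time; color: replicate; 0 means no value), and the bars give the mean and SD of 6 libraries; in each panel the points of total and labeled RNA overlap.

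Labeled against total RNA shows which transcripts are richer in new RNA than the average transcript. Genes were compared with limma on log2(abundance + 1), with labeling time as a covariate and Benjamini-Hochberg adjustment over all genes, a scale that shrinks the changes of genes as low as these. The p-values measure the spread between these libraries, all from the same line. Since no Hox gene reached the mean of 5 units asked of exons, none was among the 17974 genes tested, of which 4.75% passed an adjusted p of 0.05 with more and 8.29% with less RNA in the labeled libraries (2.76% and 3.79% with the replicate as a block). In labeled against total RNA, such a block was each pair of labeled and total library of the same time and replicate. Calls of genes other than Hox genes are given below from the fit without it. Without that filter, 11 Hox genes entered among 25295 genes and none passed, against 8.05% of all genes. Unadjusted, 1 of the 11 had p under 0.05, against 5867 of all 25295 genes. It was Hoxc12, whose exons were higher in labeled RNA by 1.38 ± 0.45 on the log2 scale (SE, limma adjusted p = 0.0851). The differences of Hoxc13 and Hoxd13 were 0.37 ± 0.39 and 0.22 ± 0.49 (SE; adjusted p = 0.610 and 0.817), and neither was told apart from no change.

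For introns, 30.2% of 14780 genes were higher in labeled RNA and 0.210% were lower, and Hoxb2 was the 1 Hox gene that passed the filter. Its log2 difference of -0.76 ± 0.39 (SE) pointed to less intronic RNA in the labeled fraction, against a median of 0.65 over all genes tested, and did not pass the test (limma adjusted p = 0.142, or 0.0766 with the replicate as a block). Without the filter 12 Hox genes were tested among 20368 genes and none passed, while 22.9% of all genes did. Unadjusted, 2 of the 12 had p under 0.05, against 7911 of all 20368 genes. They were Hoxc12 (1.20 ± 0.44 on the log2 scale, limma adjusted p = 0.0655) and Hoxc13 (1.03 ± 0.38, adjusted p = 0.0647). In neither exons (11 genes) nor introns (12 genes) did any Hox gene have all labeled libraries above, or all below, all total libraries. Of all genes with a value, 2.06% had exons and 12.8% had introns higher in every labeled library, and 4.10% had exons and 0.0982% had introns lower in every one. With the replicate as a block Hoxc12 introns passed (adjusted p = 0.0286) and Hoxc13 introns did not (0.0605), so 1 of the 12 passed against 30.1% of all genes in that fit.

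These intronic differences leaned on replicate 1, whose labeled libraries held the larger intronic shares at 15 and 60 min. For Hoxc13, labeled values were 2.04, 1.99 and 2.16 in replicate 1 and missing, 3.69 and 1.68 in replicate 2, after 15, 30 and 60 min. Total RNA of replicate 1 had no Hoxc13 value, while replicate 2 had 1.13 and 1.31. In replicate 1 alone limma called Hoxc12 introns (log2 difference 1.94, adjusted p = 0.00608), Hoxc13 introns (1.61, adjusted p = 0.0361) and Hoxb7 introns (1.46, adjusted p = 0.0307), 3 of 11 Hox genes tested against 37.0% of all genes in that fit. In replicate 2 alone the same differences were 0.45, 0.45 and -0.51, and none was called, against 8.41% of all genes. Without the labeled 15 min library of replicate 1 alone, an omission chosen after seeing the data, they were 1.06, 0.93 and 0.08 (limma adjusted p = 0.146, 0.139 and 0.952). The part of the intronic share of the libraries in this was not tested.

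The log2 ratio of introns to exons could be computed with the filter for no Hox gene and without it for 6, of which none was called between labeled and total RNA, nor had p under 0.05 (limma). Of all genes, 20.6% were called with the filter and 12.2% without. Without it, 5899 of 18123 genes had an unadjusted p under 0.05. The 6 differences lay between -0.43 (Hoxa2) and 0.66 (Hoxc13). Labeling time was compared between 60 and 15 min, with 2 libraries per group, and without the filter none of the 11 Hox genes with exonic values was called in labeled RNA, in total RNA or in the difference between them, or had an unadjusted p under 0.05. The shares of all genes called in these fits were 0.0237%, 0.0316% and 0.0316%, so hardly any gene was called over time with these libraries. Unadjusted, 540, 431 and 476 of 25295 genes had p under 0.05.

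Beyond the edges of the clusters abundance was higher. Of 24 protein-coding neighbors, the 3 nearest beyond each end of each cluster, 23 had exonic rows and 20 had an exonic value in all 12 libraries, with a median of 430 units in total RNA. Evx1 and Evx2, the homeobox genes next to Hoxa13 and Hoxd13 and part of the same ancestral array, had no exonic or intronic value in any library.

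Around Hoxa, on chromosome 6, Skap2 at the anterior end was at 198 ± 30.2 units in total RNA, Snx10, a sorting nexin, at 766 ± 89.1 and Cbx3, a heterochromatin protein, at 8276 ± 850 (SD, n = 6). Beyond Evx1, Hibadh, an enzyme of valine breakdown, was at 307 ± 53.3 and Tax1bp1, an autophagy receptor, at 1928 ± 197. The highest mean of a Hoxa gene in total RNA, that of Hoxa13, was 0.745.

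Around Hoxb (chr11:96194316-96368254), Ttll6, next to Hoxb13, was at 57.1 ± 9.26, Calcoco2 at 564 ± 46.8 and Atp5g1, a subunit of the mitochondrial ATP synthase, at 2002 ± 312. At the anterior end Skap1, an adaptor protein of T cells, was low in total RNA (2.83 ± 2.10) and higher in labeled RNA (20.6 ± 4.30), with Snx11 at 126 ± 26.0 and 220 ± 39.8 and Cbx1 at 4734 ± 1371 in total RNA. Skap1 was between 0 and 5.52 in total and between 14.2 and 26.7 in labeled RNA, so its groups did not overlap. Nor did those of Snx11, at most 145 in total and at least 162 in labeled RNA. Cbx3 near Hoxa and Calcoco1 near Hoxc were lower in every labeled than in every total library. Of all genes with a value, 2.06% had exons higher and 4.10% lower in every labeled library.

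Around Hoxc (chr15:102921131-103036856), Calcoco1 was at 365 ± 20.3 and Atp5g2 at 302 ± 76.6 on the side of Hoxc13, and Smug1, a DNA repair glycosylase, at 29.0 ± 5.10, Cbx5 at 4265 ± 276 and Hnrnpa1 at 14322 ± 1174 on the side of Hoxc4. Around Hoxd (chr2:74668225-74765142), Lnp was at 414 ± 91.1 and Atp5g3 at 3230 ± 586 beyond Evx2, and Mtx2, a mitochondrial import protein, at 430 ± 40.9, Hnrnpa3, an RNA-binding protein, at 31534 ± 1410 and Nfe2l2, the regulator of the oxidative stress response, at 539 ± 59.7 beyond Hoxd1. Each of these was above every Hox gene of its cluster.

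**Figure D4:**
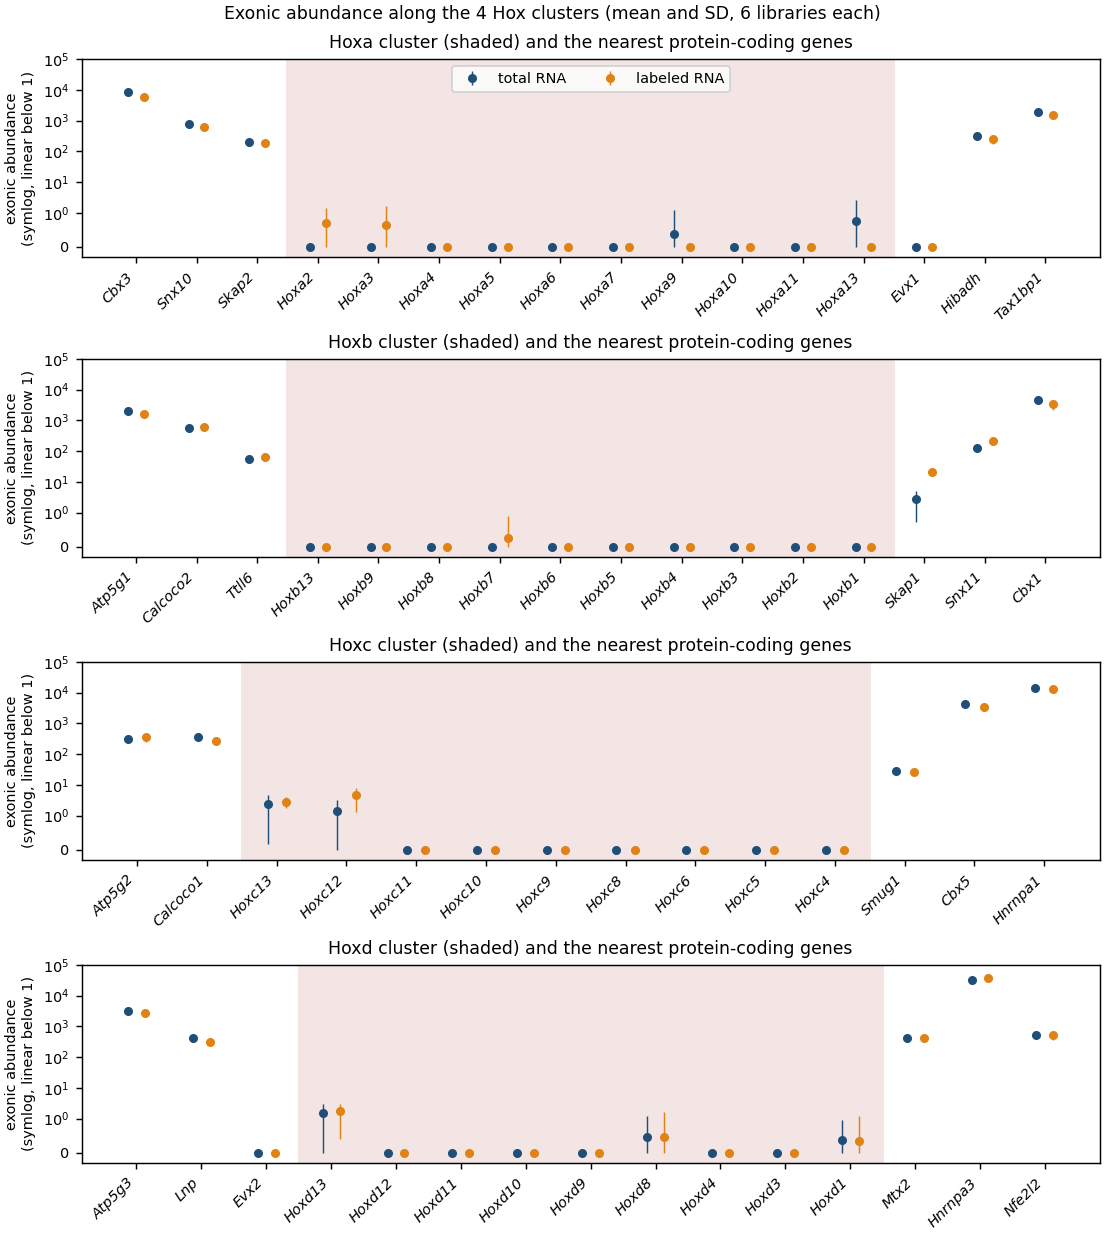
Exonic abundance (vertical axis, logarithmic above 1 and linear below) is plotted for Hox genes of each cluster (shaded, by paralog number) and the nearest protein-coding genes on either side, as mean and SD of 6 total (blue) and 6 labeled libraries (orange), with lower bars cut off at 0. Hox means stay at or under 4.58 units, Evx1 and Evx2 are at 0, and the other neighbors lie between 2.83 (Skap1) and 31534 (Hnrnpa3) in total RNA.

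Of the neighbors, 21 were tested between labeled and total exonic RNA. In labeled RNA, 2 rose, Skap1 (2.72 ± 0.44 on the log2 scale, SE; limma adjusted p = 0.00373) and Snx11 (0.81 ± 0.18, adjusted p = 0.0145), and 2 fell, Cbx3 (-0.58 ± 0.15, adjusted p = 0.0247) and Calcoco1 (-0.41 ± 0.10, adjusted p = 0.0265). The other 17 did not pass, so 2 of 21 were called in each direction, against 4.75% (higher) and 8.29% (lower) of all genes.

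Inside the clusters, 29 genes that are not annotated as protein-coding were found and 23 had exonic rows, of which 15 had no value. The 6 miRNA genes with rows, of the miR-10, miR-196 and miR-615 families, were among those without. Gm15051, called Hotairm1 in RefSeq, had exonic values in 11 libraries, from 0 to 4.63 in total RNA (median 2.44) and from 2.78 to 12.3 in labeled RNA (median 4.91). Its log2 difference of 1.15 ± 0.38 (SE) without the filter did not pass (limma adjusted p = 0.0914). Gm53, which GENCODE M1 lists as protein-coding and RefSeq as noncoding, had a value in all 12 libraries within the Hoxb cluster, with means of 4.58 ± 2.5 in total and 9.63 ± 8.89 in labeled RNA. Its exons did not pass the test (0.73 ± 0.55, adjusted p = 0.410), but its introns were higher in labeled RNA (1.09 ± 0.38, adjusted p = 0.0418). The pseudogene Gm11539 was listed at 731 ± 111 units in total and 748 ± 112 in labeled RNA. These levels are uncertain, since a pseudogene can share reads with a parent gene, which was not tested here. The other 6 had values in 1 to 3 libraries, of at most 7.87 units.

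Partners and regulators of the Hox proteins were present in the same libraries. Of the 9 TALE cofactors, homeodomain proteins that bind DNA together with Hox proteins, 8 had exonic values in all 12 libraries. In total RNA Pbx3 was highest at 169 ± 42.2, followed by Pbx2 at 125 ± 48.9, Pbx4 at 59.3 ± 14.7 and Pknox1 at 45.5 ± 7.89 (SD, n = 6). None of the 8 tested passed between labeled and total RNA (limma), and 1 of them, Pbx2, had an unadjusted p under 0.05. Of all 17974 genes tested, 4.75% passed as higher and 8.29% as lower, and 5259 had an unadjusted p under 0.05.

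All 15 Polycomb genes and H3K27 demethylases of the list had values in every library, with a median of 598 units in total RNA. Mtf2, an accessory protein of Polycomb repressive complex 2, was at 18611 ± 2584, Phc1 of complex 1 at 15747 ± 1557 and Suz12, a core subunit of complex 2, at 9103 ± 1445. Suz12 fell in labeled RNA by 0.76 on the log2 scale (adjusted p = 0.0109), as did Pcgf2 (-0.46, adjusted p = 0.0181) and Ezh2, the methyltransferase (-0.37, adjusted p = 0.0315), and the other 12 did not pass. These 3 of 15 compare with the 8.29% of all genes that were lower. With the replicate as a block that share was 3.79%, and the calls of these genes in that fit were not examined.

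Of the 16 listed activators, 10 had values in every library. They were the retinoic acid receptor genes Rara (529 ± 104) and Rarg, the retinoid partners Rxra and Rxrb, and the H3K4 methyltransferase Mll1 (582 ± 107) with its partners Men1, Wdr5, Ash2l (4517 ± 338), Rbbp5 and Dpy30 (2218 ± 346). Ash2l was the 1 of these 10 called, lower in labeled RNA (-0.32 on the log2 scale, limma adjusted p = 0.0252), against 8.29% of all genes. Cdx2, a homeobox activator of central and posterior Hox genes, had no exonic value. Cdx1, Cdx4, Rarb and Cyp26a1, a retinoic acid target, had exonic values in 1 or 2 libraries, at up to 2.64 units. Rxrg had them in 3 libraries, all of total RNA, at up to 7.12 units. Introns of Cdx1 and Rxrg were listed in 10 and 11 libraries, with means of 1.31 and 3.18 units in total RNA. Rarb introns were listed in all 12 libraries, at 13.2 ± 2.94 units in total RNA. Among introns, 4 of 10 activator genes and 4 of 14 Polycomb genes tested were higher in labeled RNA and 1 Polycomb gene was lower, against 30.2% and 0.210% of all genes. Of the 9 pluripotency genes, 2 were called in exons, both lower in labeled RNA, against 8.29% of all genes. They were Pou5f1 (-0.50 on the log2 scale, limma adjusted p = 0.00651) and Utf1 (-0.68, adjusted p = 0.00587).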

How the data were processed

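The 12 libraries, 6 of labeled and 6 of total RNA, came from mESCs exposed to 4sU for 15, 30 or 60 min, with 2 biological replicates. The authors removed reads that STAR 2.5.0 placed on rRNA and had RSEM quantify the STAR alignments of the others against exons and introns, on mm10 according to the submitters' processing notes; the use of strand in counting is not given in the sources used here. The deposited values are a length-normalized signal for exons and introns of each transcript, scaled by the authors to nearly the same sum in each library, with values of 1 or less missing; scale and cutoff were inferred from the values. The study gives an average read depth but not that of each library, so precision is given as the spread between libraries only, and both replicates come from 1 culture.

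Transcripts were assigned to genes with GENCODE M1 (an mm9 annotation, used for names, order and overlaps only), which holds 75.1% of the Ensembl transcripts of the table; later transcripts entered no gene. Values were summed over the rows of a gene, missing as 0. Hoxa3, with a pair of identifiers, was merged by name. Coordinates are from RefSeq on GRCm38. Genes with a mean of at least 5 units entered limma (version 3.58.1, R 4.3.3) as log2(value + 1). Fits had a mean-variance trend, labeling time as a covariate or 1 mean per group for the time contrasts, and Benjamini-Hochberg adjustment over all genes at 0.05. Tested on simulated data with 17974 genes, the exonic comparison recovered 177 of 200 genes changed by a log2 value of 2, with 4 false calls, and 79 of 200 changed by 1, with 10. With the filter, the intronic comparison recovered 147 of 200 changed by 2 and 1 of 200 changed by 1. The ratio of introns to exons gave 118 and 0 of 200. Exons without the filter were simulated at 2 only, with 138 of 200 recovered. With 200 changed genes, differences near 1 in introns or in the ratio were thus mostly missed. These rates need not hold for the data, where 30.2% of genes were called higher in introns. There, some intronic differences under 1 passed, such as that of Rarg (0.96, limma adjusted p = 0.0278). In simulations of the 60 against 15 min contrasts, 89 (labeled RNA), 112 (total RNA) and 30 (the difference between them) of 200 genes changed by 2 were recovered.

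Replicate numbers mark the culture, so labeled and total libraries of 1 number and time are paired by the labels. The correlation of their deviations from the group means over genes was -0.01, 0.04 and -0.15 at 15, 30 and 60 min. Alternatives were other pseudocounts and filters, the replicate as a block, each replicate left out, rescaled libraries, single transcripts and another value for missing rows. For labeled against total RNA the block was each pair of libraries of the same time and replicate, and for the time contrasts the replicate number. The values of 1 member are not reported here, though counts over the members include it. The members and gene lists were chosen with earlier results of these data known. Hox genes were to be named with values where highest in a cluster in total RNA or called in a test. The scattered exonic values of Hoxa2, Hoxa3, Hoxa9, Hoxb7, Hoxd1 and Hoxd8 were given in addition, and Hoxc12 and the intronic values of Hoxb2, Hoxb7, Hoxc9, Hoxc12, Hoxc13 and Hoxd8 were described because they had values in 6 or more libraries, both choices made after seeing them. In the other lists the highest genes and those with the largest change among called ones were named. Python 3.11.15 with pandas 2.3.3, numpy 2.4.6 and matplotlib 3.10.9 was used for the rest.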

Additional observations from a re-analysis of the deposited data

Results flagged for a closer look

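Each group of 6 libraries was examined for a library far from the others by Dixon's ratio, for the Hox values listed in at least 5 of the 6 for counts and sums over the Hox genes and for the share of protein-coding genes with a value, 20 groups in all. Chance alone marks about 1 in 20 such groups, and 3 were marked. Hoxb2 introns were at 13.39 units in total RNA at 30 min of replicate 1, where the next library was at 7.88. Hoxc12 exons were at 10.78 in labeled RNA at 30 min of replicate 2, where the next was at 4.67. Hoxc13 exons were at 6.73 in total RNA at 60 min of replicate 2, where the next was at 2.45. These are 3 different libraries.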

How the results depend on the processing

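No Hox gene was called in exons: with a filter on the mean none was tested under any alternative, and without one the 11 with values did not pass, nor did any of them under the alternatives tried without the filter. The number of all genes called between labeled and total exons was 2344 and changed to 1178 with the replicate as a block, to 8320 over single transcripts, and to between 1 and 5 with a replicate left out. For introns 4494 genes were called, 2976 with a mean of at least 20, where fewer genes are tested, and between 1780 and 7119 with a replicate left out. For the ratio of introns to exons 2507 were called, and between 485 and 4357 with a replicate left out. Over labeling time 0 genes were called by limma in labeled RNA (268 had an unadjusted p under 0.05), 4 in total RNA and 4 for the difference between them; a pseudocount of 20 gave 1 in labeled RNA, a mean of at least 20 gave 0 in total RNA and 0 for the difference, the replicate block gave 0 for the difference, and leaving out a replicate gave 0 in each. Without the filter, an alternative chosen after seeing the data like the omission of replicate 2 in these contrasts, the 3 counts were 6, 8 and 8. With 1 library per group, the omission used labeling time as a number. Over the 11 exonic, 12 intronic and 6 ratio differences of Hox genes fitted between labeled and total RNA without the filter, the replicate block changed no other call than that of Hoxc12 introns; it was not run on the time contrasts without the filter.

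In log2 differences of single Hox genes, Hoxd13 exons (0.22) were at -0.28 to 0.71 and Hoxb7 introns (0.48) at -0.51 to 1.46 with a replicate left out, so both turned direction. Of these, only Hoxb7 introns without replicate 2 were called, and the cause was not tested. Without replicate 2 Hoxd8 exons turned to 0.28, and without replicate 1 the introns of Hoxa2 and Hoxb3 turned to -0.43 each. Ratios of introns to exons turned for Hoxb7, Hoxd8, Hoxa2 and Hoxc12 with a replicate left out. None of these further differences was called. The mean share of Hox genes with an exonic value moved to 0.427% in total RNA and 0.427% in labeled RNA when a sum of at least 5 was asked, and to 4.82% and 5.42% over single transcripts; the share with an intronic value moved to 4.27% in both when a sum of at least 5 was asked, and was 7.43% and 8.63% over single transcripts. The omission of the labeled 15 min library of replicate 1, chosen after seeing the data like all fits of the other Hox genes without the filter under the alternatives, turned the introns of Hoxa2 (to -0.24) and Hoxb3 (to -0.16) and 1 of 6 ratios, none of them called, and no exons. Rescaling the libraries moved the median difference of all genes in exons from 0.00 to 0.05 on the log2 scale and, without the filter, changed no call among these Hox differences. The depth of single libraries is unknown, which limits statements on genes under 1 unit.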
